A study of Mus musculus with 3 samples.

Results

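Tppp3 and the PDGF receptor genes Pdgfra, Pdgfrb and Pdgfrl were followed through single cells of the mouse patellar tendon. They were taken by exact symbol, and all 4 were found among the 32288 features of each of the 3 count matrices. The 20-week-old group had 2 libraries (replicates 1 and 2) and the 2-week-old group had 1 library, all from wild-type (WT) mice. Tendons were cut out between patella and tibia and digested with collagenase, cells that were neither haematopoietic nor endothelial were sorted, and each library was made with 10x 3′ v3.1 chemistry. How many animals went into a library is not given in the sources used here, so a p-value measures only the spread between these libraries, which may be technical. In annotation of GRCm38 (GENCODE vM21), Tppp3 (ENSMUSG00000014846) lies on chromosome 8 from 105467493 to 105471526 on the minus strand. Pdgfrl (ENSMUSG00000031595) lies on chromosome 8 from 40926212 to 40990785, Pdgfra (ENSMUSG00000029231) on chromosome 5 from 75152292 to 75198215 and Pdgfrb (ENSMUSG00000024620) on chromosome 18 from 61045150 to 61085061, all on the plus strand. The Pdgfra locus overlaps Gm42802 and Gm42803, on the other strand, and Mir7025, so reads shared with Mir7025, on its own strand, and, where counting was not by strand, with the other 2 genes cannot be told apart from its own.

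Tppp3 (tubulin polymerization-promoting protein family member 3) binds microtubules and is widely used as a marker of the tendon sheath and the loose tissue around tendons, where Tppp3-positive, Pdgfra-positive cells have been described as tendon stem cells. Pdgfra and Pdgfrb are receptor tyrosine kinases for platelet-derived growth factors. Pdgfra is typical of fibroblasts, and Pdgfrb of pericytes and vascular smooth muscle cells as well as of many fibroblasts. Pdgfrl is a receptor-like gene whose product resembles the outer part of the receptors and has no kinase domain.

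The numbers of cells used were 606, 1007 and 4767 in 20-week replicate 1, 20-week replicate 2 and the 2-week library, and the unique molecular identifier (UMI) counts in them were 1786542, 5547786 and 32734426. Median depth was 2822 and 5134 UMIs per cell in the 20-week replicates and 6502 in the 2-week library, so the libraries differ in depth along with age. Barcodes shared between libraries numbered 0 between the 20-week replicates, 2 between 20-week replicate 1 and the 2-week library, and 3 between 20-week replicate 2 and the 2-week library. Cells were clustered without the 4 genes and without the listed genes of their pathway, and clusters were named only from fixed markers. Tenocyte-like cells numbered 243, 165 and 688 in the same order of libraries, progenitor-like cells (Cd55, Cd248, Pi16) 121, 211 and 859, and mural-like cells 43, 33 and 663. Clusters held these classes unequally. Of the tenocyte-like cells, cluster 6 held 232 and 114 at 20 weeks but 32 at 2 weeks, whereas cluster 5 (Angptl7, Crabp1, Kera) held 5 and 2 at 20 weeks and 441 at 2 weeks. The top 10 genes of cluster 6 held the tenocyte markers Scx and Comp and the osteogenic marker Ibsp, beside Ecrg4, Clu, Cytl1, Lgals7, Spp1, Npy and Chad. Of these, Ibsp, Spp1 and Chad were also among the top 10 of the osteogenic-like cluster 12 and Cytl1 among those of chondrocyte-like cluster 2. Progenitor-like cluster 11 (Akr1c18, Dpp4) was seen at 2 weeks only, with 192 cells. At a finer clustering resolution of 1.0, other progenitor-like cells were split mostly by age. One such cluster held 7 and 6 cells at 20 weeks and 596 at 2 weeks, another 116 and 210 against 4. In mural-like cells, cluster 4 (Actg2, Tagln, Myh11) held 17 and 1 cells at 20 weeks and 455 at 2 weeks.

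Across cell types, Tppp3 was broad, Pdgfra was high in progenitor-like cluster 1 and the unnamed clusters 3, 0 and 7 and near 0 in mural-like cells, Pdgfrb was highest in mural-like cluster 9, and Pdgfrl was highest in tenocyte-like and osteogenic-like cells of the 2-week library. Levels are given in CPM, the UMIs of a gene per 1000000 UMIs of the cells summed. Levels of different genes are not compared with each other, only their order across cells.

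**Figure D1:**
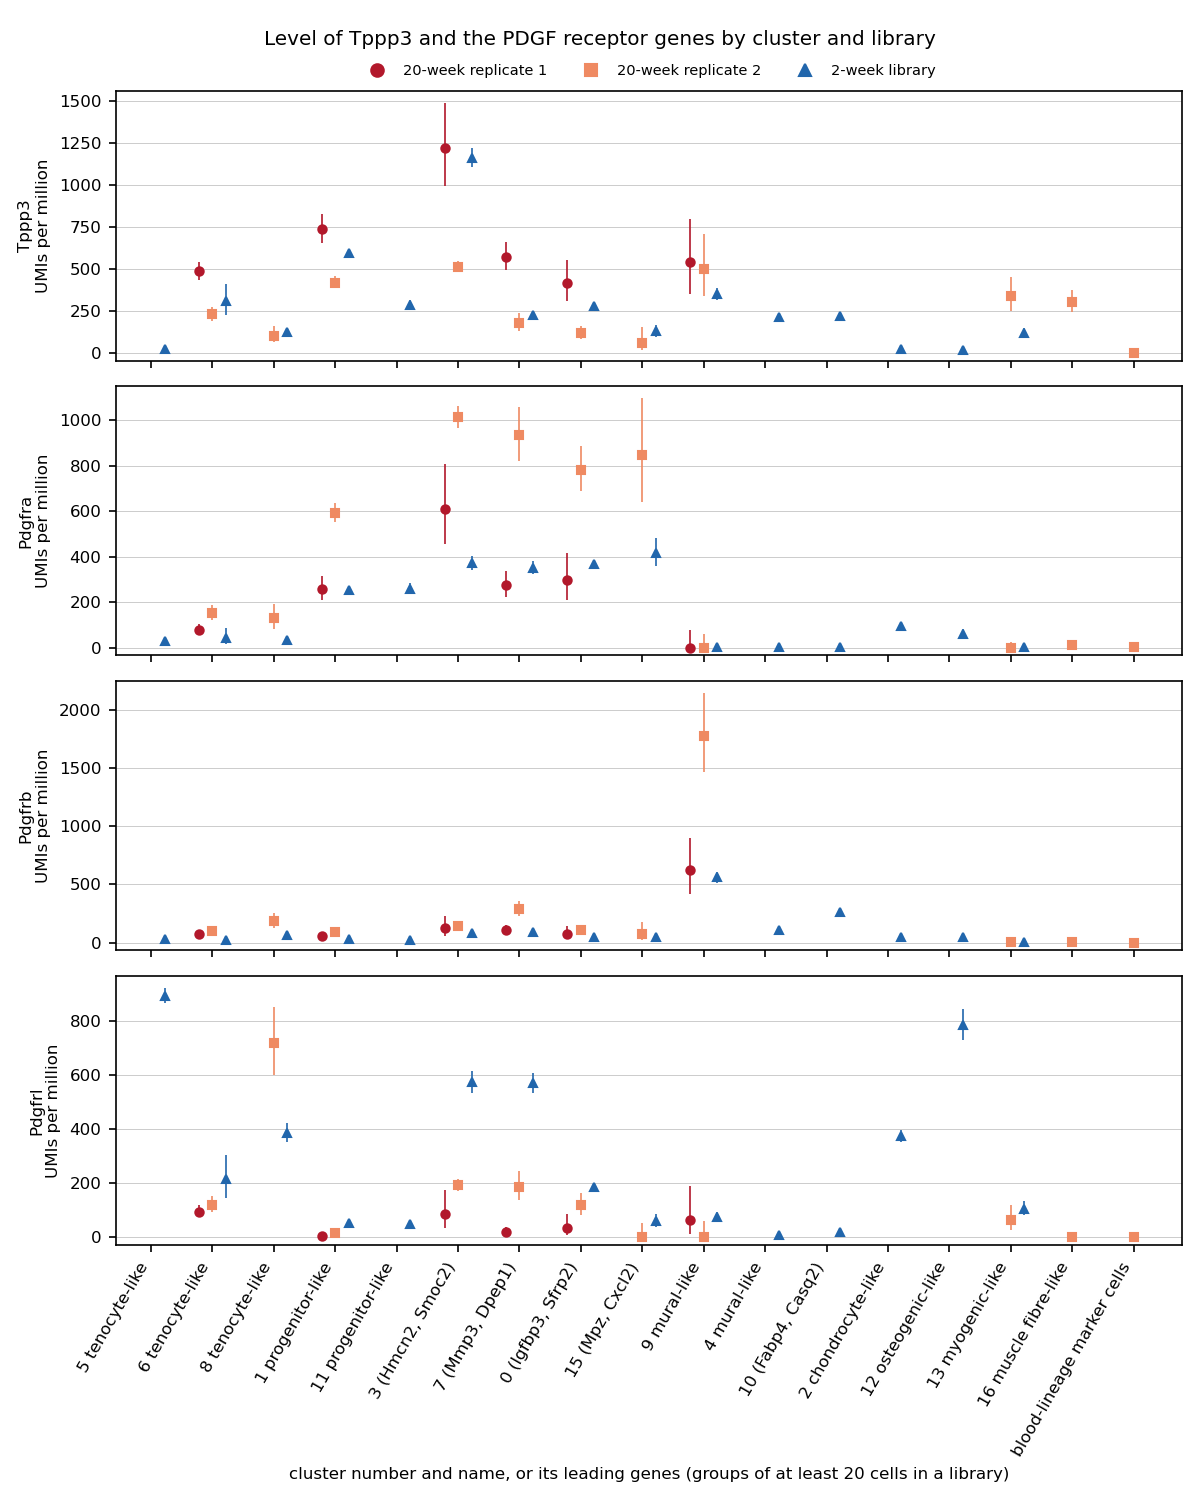
Level of each gene in CPM, UMIs of the gene per 1000000 UMIs summed over the cells of a cluster (y axis), by cluster (x axis) and library, for groups of at least 20 cells in that library. Red circles and orange squares are 20-week replicates 1 and 2, blue triangles the 2-week library, and bars are exact 95% Poisson intervals, which cover counting error only; Pdgfrb stands out in mural-like cluster 9, where Pdgfra is at 0, 0 and 2.04 CPM.

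Tppp3 was detected in around every other cell of each library. In all cells together it stood at 576 and 339 CPM in 20-week replicates 1 and 2, against 279 in the 2-week library. At least 1 Tppp3 UMI was found in 54.5% and 48.6% of 20-week cells and in 47.5% of 2-week cells. With every cell thinned to 2000 UMIs, which left 464, 887 and 4542 cells in 20-week replicate 1, replicate 2 and the 2-week library, the shares were 50.0% and 34.7% at 20 weeks and 29.8% at 2 weeks. As a floor for free RNA, 66 cells of 20-week replicate 2 that carried at least 3 of 11 blood-lineage markers had no Tppp3 UMI at a median depth of 4530 UMIs, which allows a share of up to 4.55% (3 cells of 66). They had no UMI of Pdgfrb or Pdgfrl either, and 1 of them (1.52%) had one of Pdgfra. No such cells were found in the other libraries.

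Among the 6 clusters with at least 20 cells in every library, Tppp3 was highest in cluster 3, an unnamed cluster led by Hmcn2, Smoc2 and Abca8a, and it held that rank in each library. Its level there was 1223 and 511 CPM at 20 weeks and 1162 at 2 weeks. Progenitor-like cluster 1 (Pi16, Dact2, Cd55) followed with 736 and 419 at 20 weeks and 593 at 2 weeks. Mural-like cluster 9 (Rgs5, Kcnj8, Abcc9) had 540 and 497 CPM at 20 weeks and 348 at 2 weeks, so a cluster led by pericyte genes carried Tppp3 within the range of progenitor-like cluster 1 at 20 weeks and below it at 2 weeks. Tenocyte-like cluster 6, cluster 0 (Igfbp3, Sfrp2) and cluster 7 (Mmp3, Dpep1) were lower, with medians over the libraries of 309, 280 and 223. The ranges of every pair of neighbours in this order overlapped. At the low end in the 2-week library were tenocyte-like cluster 5 at 25.0, chondrocyte-like cells at 19.2 and osteogenic-like cells at 14.7 CPM. Cells with muscle genes also held Tppp3: 27.7% of the 83 muscle fibre-like barcodes of 20-week replicate 2 had a UMI of it.

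Pdgfra was high in clusters 3, 0, 7 and 1 and low elsewhere among the 6. In all cells it reached 190 and 590 CPM at 20 weeks and 179 at 2 weeks, and 36.0% and 63.1% of 20-week cells and 46.6% of 2-week cells had a UMI. After thinning, the shares were 25.9% and 52.8% at 20 weeks and 26.1% at 2 weeks, so 20-week replicate 2 stood above both other libraries and replicate 1 lay beside the 2-week library. Cluster 3 was highest in each library, with 612 and 1014 CPM at 20 weeks and 370 at 2 weeks. Cluster 3 held 14.7% and 55.3% of all Pdgfra UMIs in 20-week replicates 1 and 2 and 9.08% at 2 weeks, from 5.61% and 27.1% of the cells at 20 weeks and 3.69% at 2 weeks. Clusters 0, 7 and 1 came next, and cluster 6 of the tenocyte-like cells lay below them without overlap, at 78.7 and 151 CPM at 20 weeks and 40.3 at 2 weeks. Mural-like cells had no Pdgfra UMI among 43 and 33 cells at 20 weeks, which allows levels of up to 31.9 and 46.1 CPM, and at 2 weeks 6 of 663 cells (0.905%) had one.

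Among these 6 clusters, Pdgfrb was highest in the one with the least Pdgfra. Mural-like cluster 9 held 627 and 1781 CPM at 20 weeks and 561 at 2 weeks, and no other of the 6 clusters overlapped it. The next was cluster 3 with a median of 122, followed by clusters 7, 0, 6 and 1, whose ranges overlapped from one to the next. Within the 2-week library, mural-like cluster 4, led by the smooth muscle genes Actg2 and Tagln, had 109 CPM, and cluster 10 (Fabp4, Nrgn, Casq2) had 260. Both receptors were rare in cells with muscle genes: 0 of 32 myogenic-like and 1 of 83 muscle fibre-like cells of 20-week replicate 2 had a Pdgfra UMI, and 1 of 32 and 1 of 83 had a Pdgfrb UMI.

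Pdgfrl was highest in tenocyte-like cluster 5 and osteogenic-like cells of the 2-week tendon. In the 2-week library it stood at 894 CPM in tenocyte-like cluster 5, with a UMI in 91.8% of cells, and at 786 in osteogenic-like cells, with a UMI in 95.3%. The unnamed clusters 3 and 7 had 574 and 570 at that age, chondrocyte-like cells 375, tenocyte-like cluster 6 215 and progenitor-like cluster 1 53.0. At 20 weeks cluster 3 had 85.6 and 193 CPM and cluster 7 had 18.4 and 187. Tenocyte-like cluster 8 (Col22a1, Tnmd, Thbs4) went the other way from the other clusters with enough cells: it had 718 CPM in 49 cells of 20-week replicate 2, against 387 in 215 cells at 2 weeks, and replicate 1 had 6 such cells. In mural-like cells Pdgfrl was at 42.5 and 0 at 20 weeks and 24.1 at 2 weeks.

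To test differences between classes, UMI counts were summed per class and library and compared with edgeR's quasi-likelihood test with library as a block, with Benjamini-Hochberg adjustment over 8105 genes. Between mural-like and progenitor-like cells, 2 of the 4 genes passed, in opposite directions, where 18% of all genes passed. Here and below, the value after ± is an approximate SE, the size of the log2 ratio divided by the square root of its F value. Pdgfra was lower in mural-like cells by a log2 ratio of -7.20 ± 0.53 (adjusted p = 2.84e-05). That fitted value rests on 7 mural-like UMIs, all from the 2-week library, so its SE should not be read as its precision. Pdgfrb was higher in mural-like cells (3.26 ± 0.35, adjusted p = 0.000154). Tppp3 (-0.70 ± 0.46, adjusted p = 0.370) and Pdgfrl (-0.53 ± 0.72, adjusted p = 0.702) did not pass.

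Between mural-like and tenocyte-like cells 3 of the 4 genes passed, against 16.5% of all genes. Pdgfrb was higher in mural-like cells by 2.47 ± 0.34 on the log2 scale (adjusted p = 0.000788). Pdgfra was lower in them (-5.18 ± 0.55, adjusted p = 0.000198), a value that rests on the same few mural-like UMIs. Pdgfrl was lower in mural-like cells too (-4.70 ± 0.73, adjusted p = 0.00169), while Tppp3 did not pass (0.63 ± 0.48, adjusted p = 0.455). Between progenitor-like and tenocyte-like cells 2 of the 4 genes passed, against 12.2% of all genes. Progenitor-like cells had more Pdgfra (2.02 ± 0.31, adjusted p = 0.00191) and less Pdgfrl (-4.16 ± 0.55, adjusted p = 0.000748) than tenocyte-like cells. Tppp3 (1.32 ± 0.47, adjusted p = 0.113) and Pdgfrb (-0.80 ± 0.33, adjusted p = 0.177) did not pass between them. The direction of Tppp3 between mural-like and tenocyte-like cells turned when a single cluster stood for each class (-0.04, adjusted p = 0.972), and so did that of Pdgfrl between mural-like and progenitor-like cells (0.53, adjusted p = 0.533).

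The comparison of ages asks whether the genes differ between the adult and the growing tendon. With 2 libraries against 1, only 1 residual degree of freedom was left, and the 2-week library was assumed to vary as the 20-week libraries do. In the age fits within a class, the spread was shared wholly across genes. A p-value there does not reflect a gene's own spread between the 20-week replicates. In all cells none of the 4 genes passed edgeR's quasi-likelihood test, where 0.188% of 13294 genes did; at an unadjusted p under 0.05 there was 1, Pdgfrl. Its level was 53.2 and 120 CPM at 20 weeks against 301 at 2 weeks (log2 ratio -1.83 ± 0.55, adjusted p = 0.367). Adjusted p was 0.934 for Tppp3 (0.79 ± 0.72), 0.856 for Pdgfra (1.05 ± 0.72) and 0.906 for Pdgfrb (0.61 ± 0.49). In 20-week replicate 2 the sum includes 83 muscle fibre-like barcodes and 66 cells with blood-lineage markers, against 0 and 0 in replicate 1, and 11 and 0 at 2 weeks. Without the muscle fibre-like, myogenic-like and cycling clusters none of the 4 genes passed either, and Pdgfrl came closest (-1.67, adjusted p = 0.0997).

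In tenocyte-like cells Tppp3 rose and Pdgfrl fell, 2 of the 4 genes, where 8.94% of 8051 genes passed. Tppp3 had 477 and 197 CPM at 20 weeks, against 54.8 at 2 weeks (2.51 ± 0.75, adjusted p = 0.0130), and both 20-week values lay above the 2-week value. Pdgfrl had 98.4 and 264 at 20 weeks, against 761 at 2 weeks (-2.31 ± 0.69, adjusted p = 0.0128), with both 20-week values below. Pdgfra, at 79.3 and 146 CPM at 20 weeks and 31.3 at 2 weeks, missed the threshold (1.63 ± 0.58, adjusted p = 0.0558), and so did Pdgfrb (1.13 ± 0.56, adjusted p = 0.256).

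Both calls were lost within a single cluster, at clustering resolution 1.0 (adjusted p = 0.207 for Tppp3 and 0.252 for Pdgfrl) and with doublets kept in (0.256 and 0.252). Without 20-week replicate 1 the log2 ratio was 1.49 for Tppp3 and -1.86 for Pdgfrl, and without replicate 2 it was 3.09 and -2.96, with no test. Within cluster 6, the only tenocyte-like cluster with at least 20 cells in every library, Tppp3 stood at 486 and 229 CPM at 20 weeks against 309 at 2 weeks, so the 20-week replicates lay on either side (0.44, adjusted p = 0.843). Pdgfrl in cluster 6 stood at 95.6 and 120 at 20 weeks against 215 at 2 weeks (-0.82, adjusted p = 0.585). In tenocyte-like cluster 8, Pdgfrl was higher in 20-week replicate 2 (49 cells) than at 2 weeks (215 cells), as given above. Cluster 5, with 441 of the 2-week tenocyte-like cells, held 5 and 2 cells at 20 weeks. Markers of the tendon lining (4 of 4 detected, Prg4 among them) summed to 9109 and 8149 CPM in tenocyte-like cells at 20 weeks and 717 at 2 weeks, and osteogenic markers to 861 and 999.7 CPM at 20 weeks and 1.68 at 2 weeks. Of the 7 osteogenic markers only 2 were detected in each 20-week library and 3 at 2 weeks, Ibsp among them, while Bglap, Sp7 and Dmp1 were at 0 in all 3 libraries. Both lists move with age in the same direction as Tppp3, and their part in the result was not tested.

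In progenitor-like cells 1 of the 4 genes passed, where 3.23% of 9760 genes did. Pdgfrl fell, with 5.08 CPM at 20 weeks in replicate 1 (exact Poisson interval 0.615 to 18.3, from 2 UMIs) and 15.1 in replicate 2 (20 UMIs), against 52.4 at 2 weeks (333 UMIs; -2.18 ± 0.53, adjusted p = 0.00199). Within cluster 1 alone the value was -2.19 (adjusted p = 0.00208). With thinned sums, adjusted p was 0.218, and by DESeq2 it was 0.952, at log2 ratios of -2.45 and -2.29. Leaving out a replicate gave log2 ratios of -3.10 (without replicate 2) and -1.84 (without replicate 1), with no test.

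Tppp3, the gene used to mark tendon progenitors, did not pass in progenitor-like cells (0.19 ± 0.59, adjusted p = 0.993). It had 736 and 419 CPM at 20 weeks and 515 at 2 weeks, so the 2-week value lay between the 20-week values. A Tppp3 UMI was found in 66.9% and 65.4% of progenitor-like cells at 20 weeks and 81.1% at 2 weeks, at median depths of 3237 and 6207 against 7383 UMIs. Thinned to 2000 UMIs, the shares were 63.0% and 45.9% against 53.0%. Pdgfra (0.72 ± 0.58, adjusted p = 0.896) and Pdgfrb (1.44 ± 0.50, adjusted p = 0.0996) did not pass either; Pdgfrb was at 53.3 and 89.4 CPM at 20 weeks, both above 26.6 at 2 weeks.

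In mural-like cells none of the 4 genes passed, and Pdgfra and Pdgfrl were too low to be tested. Of 2493 genes tested 0.16% passed in this fit, and no tested member had an unadjusted p under 0.05. Pdgfrb stood at 372 and 1721 CPM at 20 weeks and 205 at 2 weeks (1.98 ± 1.92, adjusted p = 1.00). Tppp3 stood at 447 and 476 at 20 weeks and 243 at 2 weeks (0.71 ± 1.503, adjusted p = 1.00). The sums at 20 weeks held only 94033 and 65082 UMIs. Within cluster 9 Pdgfrb was 1.12 and 3.17 times the 2-week level in replicates 1 and 2.

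**Figure D2:**
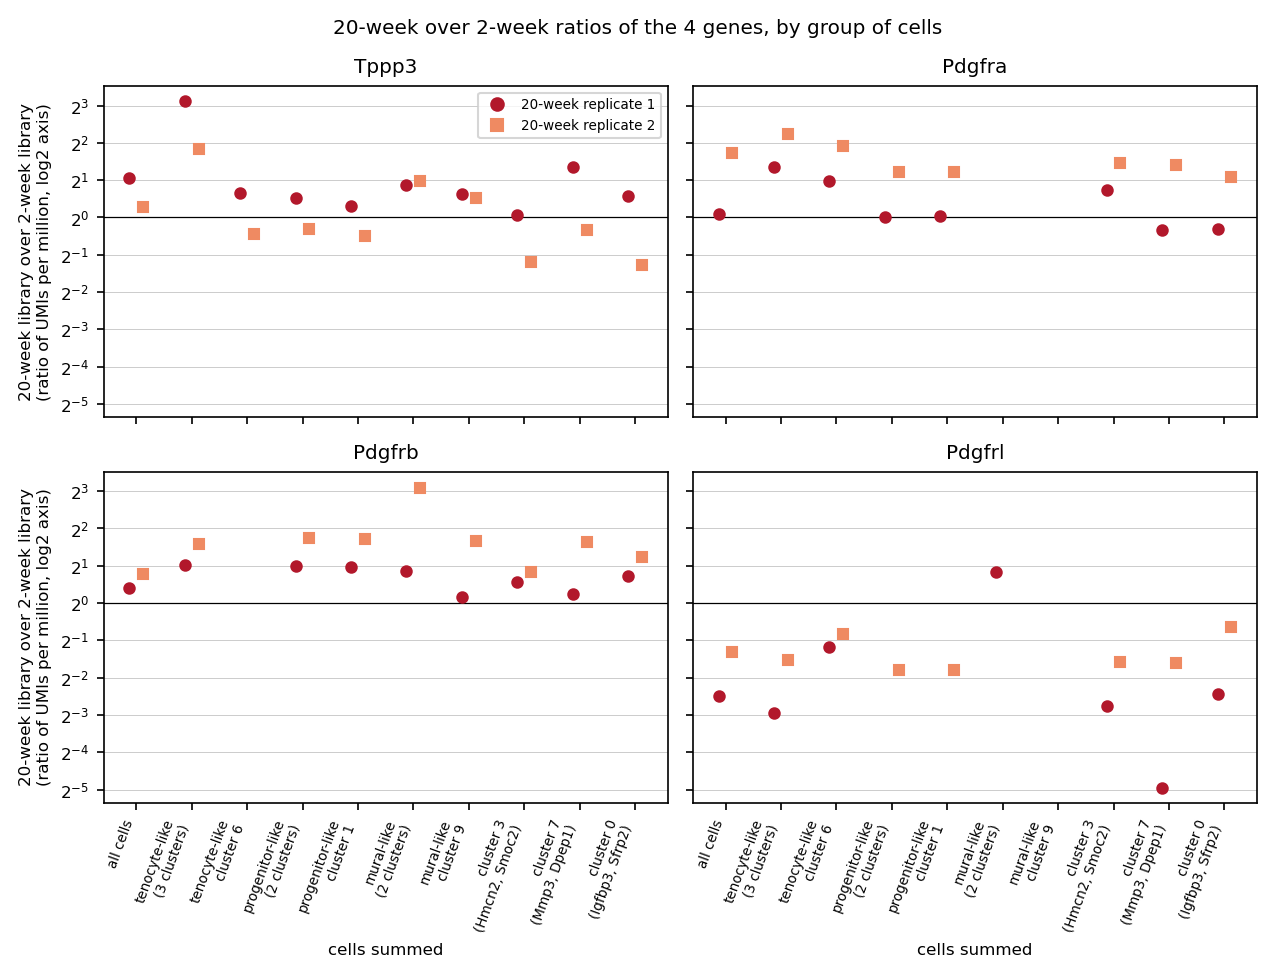
Ratio of CPM in each 20-week library over the 2-week library (y axis, log2 scale, line at 1) for the 4 genes, in all cells, in 3 classes and in single clusters (x axis); ratios resting on 3 or fewer UMIs in either library are not drawn. Tppp3 in tenocyte-like cells is 8.70 and 3.59 times the 2-week level over 3 clusters and 1.57 and 0.74 times within cluster 6.

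By cluster, Pdgfra in 20-week replicate 2 was 2.13 to 3.76 times the 2-week level in each of the 5 clusters with enough UMIs, while replicate 1 gave 0.79 to 1.95 times. Pdgfrl was below the 2-week level in both replicates in clusters 3, 6, 7 and 0, by ratios of 0.03 to 0.64. Whether an age difference itself differed between classes was tested as an interaction over 10718 genes, and none of the 4 genes passed in any of the 3 class pairs by edgeR's quasi-likelihood test, where 0.924%, 2.02% and 1.61% of genes did for mural-like against progenitor-like, mural-like against tenocyte-like and progenitor-like against tenocyte-like cells. The smallest p among the members was that of Tppp3 for progenitor-like minus tenocyte-like cells (-2.18 ± 0.80, unadjusted p = 0.00623, adjusted p = 0.202). Pdgfra has no usable interaction with mural-like cells, whose 20-week sums are at 0.

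Cells with both Tppp3 and Pdgfra, the pair used to define tendon stem cells, made up 21.6% of 20-week replicate 1 (131 of 606, exact 95% binomial interval 18.4% to 25.1%), 38.9% of replicate 2 (392 of 1007, 35.9% to 42.0%) and 26.6% of the 2-week library (1270 of 4767, 25.4% to 27.9%). Intervals here cover counting error only. The 2-week share lay between those of the 20-week replicates. At 2000 UMIs per cell the shares were 14.7% and 22.2% at 20 weeks and 9.45% at 2 weeks, so at equal depth the 2-week share was the lowest of the 3. No blood-lineage marker cell had both genes (0 of 66).

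The pair was seen together more often than the product of the single shares in each library. The counting interval left out 1 in 2 of the 3 libraries. It scales the interval of the observed share by a product held fixed, so it is not a test of association. In 20-week replicate 1, Pdgfra was detected in 39.7% of cells with Tppp3 and in 31.5% of cells without it. Observed over product was 1.104 (0.939 to 1.28) in 20-week replicate 1, 1.27 (1.17 to 1.37) in replicate 2 and 1.20 (1.15 to 1.26) at 2 weeks. Deep cells have more of every gene, so the product was also taken within quintiles of depth, which gave 1.09, 1.13 and 1.17. Taken within cluster and depth quintile, the ratio was 0.996, 1.008 and 1.014. Over all cells and within cluster and depth quintile, Tppp3 and Pdgfra were thus found together about as often as their separate shares give. This does not show that the genes are independent. The ratio has little room above 1 where both are common, as in 2-week progenitor-like cells (81.1% and 74.5%). A stratum with 1 cell adds equal observed and expected counts, which draws the ratio to 1. By class, this ratio was 1.028 and 0.998 at 20 weeks and 0.994 at 2 weeks in progenitor-like cells. In tenocyte-like cells it was 0.906 and 1.243 at 20 weeks and 1.242 at 2 weeks, from 20, 31 and 34 cells with both genes. At 2 weeks it was 1.42 in chondrocyte-like, 1.04 in cycling and 0.972 in osteogenic-like cells, from 20, 26 and 2 cells with both genes.

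Other pairs of the 4 genes were compared in the same way. Over 6 pairs in 3 libraries, the ratio in whole libraries ranged between 0.739 and 1.29, and 9 of the 18 counting intervals left out 1, 7 above it and 2 below it. Within cluster and depth quintile, 17 of 18 ratios were within 10% of 1, and the exception was Pdgfrb with Pdgfrl in 20-week replicate 1 (1.22, from 22 cells). That count was 17 of 18 with doublets kept in, 15 of 18 with stricter cell filters and 14 of 18 with cells thinned to 2000 UMIs, and 10 of 18 both with cells thinned to 1000 UMIs and when at least 2 UMIs of each gene were asked for. In the last 3 settings some values rest on as few as 6, 3 and 1 cells with both genes. Pdgfra with Pdgfrb was below the product at 2 weeks (0.843, 0.778 to 0.911) and above it in 20-week replicate 2 (1.25, 1.13 to 1.37), against 1.05 and 1.00 within cluster and depth. Tppp3 with Pdgfrl at 2 weeks was 0.8002 (0.751 to 0.851) in the whole library and 0.970 within cluster and depth.

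**Figure D3:**
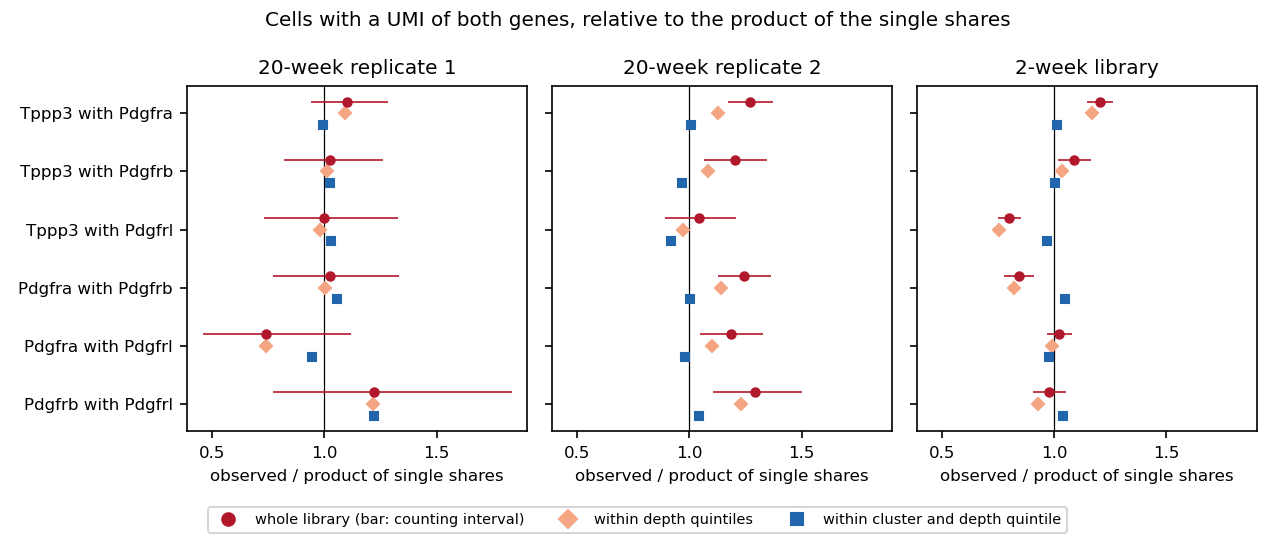
Cells with a UMI of both genes of a pair, divided by the product of the single shares (x axis, 1 at the line), for 6 pairs (y axis) in each library. Red circles are whole libraries with counting intervals, orange diamonds within quintiles of depth, blue squares within cluster and depth quintile; the blue squares lie between 0.921 and 1.22, and 17 of 18 are within 10% of 1, against 14 of 18 with cells thinned to 2000 UMIs.

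Cells with both Tppp3 and Pdgfra were spread over several clusters. Progenitor-like cluster 1 held 33.6% and 32.1% of them at 20 weeks and 31.8% at 2 weeks. That share was alike in the 3 libraries at this clustering resolution, whereas resolution 1.0 split the progenitor-like cells mostly by age. Cluster 3 held 16.8% and 51.0% at 20 weeks and 11.5% at 2 weeks, cluster 7 held 27.5% and 4.59% against 6.69%, and cluster 0 held 6.11% and 3.83% against 32.0%. The pair therefore did not pick out a single cluster, and the clusters that held it differed between the 20-week replicates as well as between ages. The make-up of the libraries differed too. Cluster 3 was 5.61% and 27.1% of all cells at 20 weeks and 3.69% at 2 weeks. Cluster 0 was 7.43% and 7.25% against 22.7%. Clusters 3, 7 and 0 each held most of the pair in the library where they were the largest share of all cells. Whether the place of the pair changed beyond this make-up was not tested.

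Cd55 and Cd248, surface genes of the progenitor-like list, were co-detected in 28.2% and 52.0% of the Tppp3+ Pdgfra+ cells at 20 weeks and in 50.8% at 2 weeks. In cells with neither Tppp3 nor Pdgfra the shares were 5.82% and 3.27% at 20 weeks and 3.16% at 2 weeks, at median depths of 2526 and 3170 against 5506 UMIs, where Tppp3+ Pdgfra+ cells had 3121 and 6924 against 7508. Cells with Tppp3 alone had shares of 15.6% and 12.4% at 20 weeks and 17.2% at 2 weeks, and cells with Pdgfra alone 12.6% and 20.6% at 20 weeks and 14.2% at 2 weeks. Seen from the other side, Tppp3+ Pdgfra+ cells made up 41.1% of 90 and 74.2% of 275 Cd55+ Cd248+ cells at 20 weeks and 64.5% of 1000 at 2 weeks, and cells with Tppp3 alone a further 34.4% and 4.36% at 20 weeks and 17.1% at 2 weeks.

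Of the cells with a UMI of either kinase receptor, the larger share had a UMI of 1 receptor only in each library. In progenitor-like cells, Pdgfra alone accounted for 76.7% and 56.8% of receptor-positive cells at 20 weeks and 79.2% at 2 weeks, and both receptors for 10.96% and 39.5% against 16.6%. In mural-like cells Pdgfrb alone accounted for 100% and 100% (20 and 32 cells) at 20 weeks and 98.6% of 425 at 2 weeks. Tenocyte-like cells were mixed: Pdgfra alone 45.9% and 35.8% at 20 weeks and 36.3% at 2 weeks, Pdgfrb alone 43.5% and 34.7% against 49.1%. Cells with all of Tppp3, Pdgfra and Pdgfrb were 5.45% and 19.4% of cells at 20 weeks and 6.92% at 2 weeks.

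**Figure D4:**
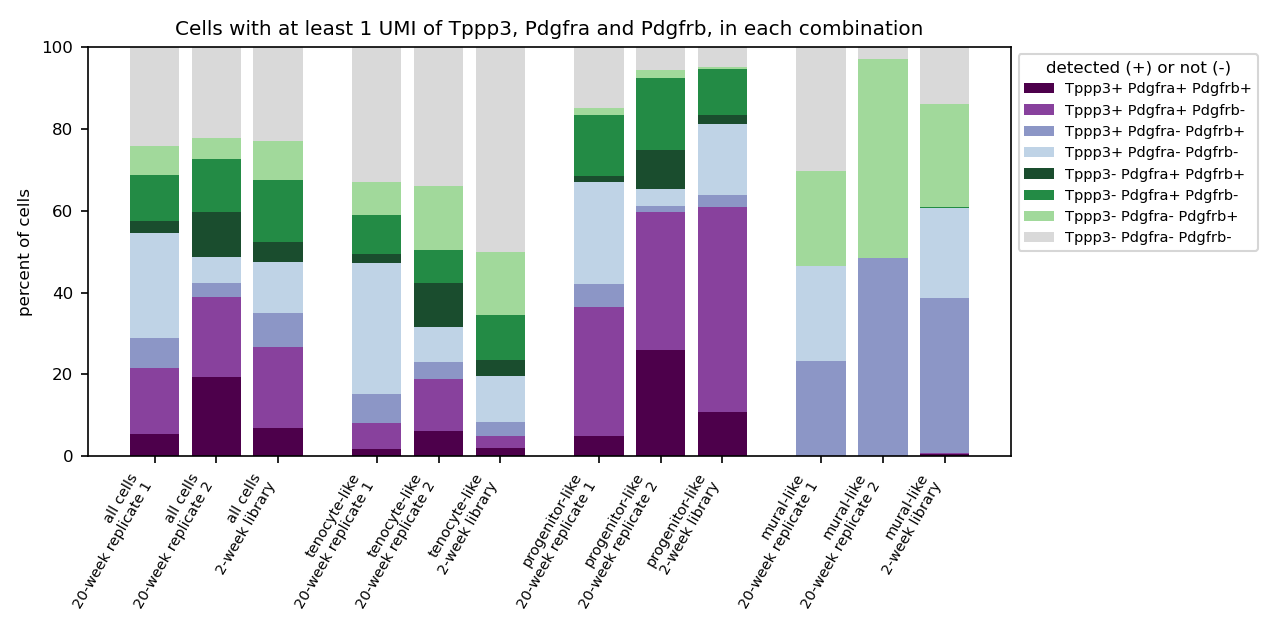
Percent of cells (y axis) with each combination of detected (+, at least 1 UMI) and undetected (-) Tppp3, Pdgfra and Pdgfrb, in all cells and 3 classes, one bar per library, 20-week replicates left of the 2-week library (x axis). Purple and blue shades hold Tppp3; mural-like bars have almost no Pdgfra, which was detected in 0 of 43 and 0 of 33 cells at 20 weeks and 6 of 663 at 2 weeks.

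Of the ligands, Pdgfa differed between classes. Pdgfa, which binds mainly Pdgfra, was at 138 and 123 CPM in mural-like cells at 20 weeks and 197 at 2 weeks, against 12.7 and 5.30 at 20 weeks and 16.5 at 2 weeks in progenitor-like cells (mural-like over progenitor-like 3.73 ± 0.34, adjusted p = 7.25e-05). Tenocyte-like cells had 92.9 and 123 CPM of Pdgfa at 20 weeks and 153 at 2 weeks, and progenitor-like cells were lower than they were (-3.78 ± 0.32, adjusted p = 8.04e-05). Of the 3 classes, the one with the most Pdgfra thus had the least Pdgfa in each library. Pdgfb, the classical pericyte ligand made by endothelium, had 0 and 3 UMIs in all cells at 20 weeks and 151 at 2 weeks, in a sort that removed endothelial cells. Pdgfc, cleaved by Plat, was at 83.8 and 43.2 CPM in progenitor-like cells at 20 weeks and 22.7 at 2 weeks, and did not pass between ages.

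Among the 5 ligand and activator genes, 2 of 4 tested passed between ages in tenocyte-like cells, where 8.94% of all genes passed. Pdgfd, a ligand of Pdgfrb, fell to 1.37 and 12.9 CPM at 20 weeks, against 26.7 at 2 weeks (-2.10 ± 0.63, adjusted p = 0.0143). That call was lost by DESeq2 (adjusted p = 0.700) and with thinned sums (adjusted p = 0.0532), as well as at resolution 1.0 and with doublets kept in. Plat, tissue plasminogen activator, rose to 69.7 and 49.2 CPM at 20 weeks, against 7.74 at 2 weeks (2.78 ± 0.57, adjusted p = 5.43e-05), and passed in each of the 8 alternatives that could be tested. None of 5 tested passed in all cells and none of 4 in progenitor-like cells, by edgeR's quasi-likelihood test. Of all genes, 0.188% and 3.23% passed there. Of the tested ligand and activator genes, 2 and 1 had an unadjusted p under 0.05. The median log2 ratio of the 4 tested ligand and activator genes in tenocyte-like cells was 0.02, beside 0.04 over all genes.

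Receptor partners and signal relays (20 genes) and attenuators such as Cbl and the Sprouty genes (13 genes) had no member past the threshold in any of the 4 age comparisons by edgeR. Between 0.16% and 8.94% of all genes passed in these comparisons. In tenocyte-like cells 0 of 18 relays and 3 of 12 attenuators had an unadjusted p under 0.05, with median log2 ratios of 0.03 and -0.20; in progenitor-like cells 1 of 20 and 1 of 13 had one, with medians of -0.07 and 0.48. Between mural-like and progenitor-like cells, where 18% of all genes passed, the relays Lrp1 and Fyn were lower, and 4 of 13 attenuators were higher (Ptpn1, Ptpn2, Spry1, Spry4) and 2 lower (Cblb, Socs1), all named after their values were seen. Spry1, a feedback inhibitor of receptor tyrosine kinase signalling, was higher by 2.84 ± 0.33 (adjusted p = 0.000257).

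Of the 14 TPPP-family and tubulin genes, 1 of 11 tested passed by age in tenocyte-like cells, where 8.94% of all genes passed. It was Tuba1c, an alpha-tubulin, with 146 and 50.5 CPM at 20 weeks against 8.58 at 2 weeks (3.40 ± 0.63, adjusted p = 4.82e-06 by edgeR). In progenitor-like cells 2 of 11 passed, where 3.23% of all genes did, and both fell. Stmn1, which destabilises microtubules, had 30.5 and 6.82 CPM at 20 weeks against 61.4 at 2 weeks (-2.06 ± 0.53, adjusted p = 0.00485), and Tubb2b had 43.2 and 17.4 against 91.4 (-1.76 ± 0.49, adjusted p = 0.0157). Both calls were lost with thinned sums (adjusted p = 0.354 and 0.567) and by DESeq2 (adjusted p = 1.00 for each).

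Genes whose level over 16 class-by-library points resembled each member most, among 6091 genes, were described by Pearson r on log2 values. For Tppp3 these were Map7d1 (0.87), Serping1, Kif1b, Gstm1 and Rarres2 (0.83). For Pdgfra they included Dnm1 (0.94), Steap3, Adamtsl3 and Flrt2 (0.92). For Pdgfrb they were Plekhg3 (0.95), Sacm1l, Itga1, Hrct1 and Nbeal1 (0.91), and for Pdgfrl Mpzl1 (0.92), Sdc3, Col12a1, Tnc and Adgra3 (0.90). Among the members themselves r of Tppp3 was 0.20 with Pdgfra, 0.39 with Pdgfrb and -0.36 with Pdgfrl. It was -0.06 between Pdgfra and Pdgfrb, 0.25 between Pdgfra and Pdgfrl and -0.12 between Pdgfrb and Pdgfrl. The points share 3 libraries and their depth, so these values are descriptions only.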

How the data were processed

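Raw UMI counts per gene and barcode were deposited for each library, made by the authors with Cell Ranger 6.1.2 on mm10, per the submitters' processing notes; whether counting used strand is not given in the sources used here. Barcodes with at least 1000 UMIs, at least 500 genes and at most 10% mitochondrial UMIs were kept (609, 1015 and 4964). Doublets were taken as the barcodes with the highest simulated-doublet score, up to 0.8% per 1000 barcodes called, and left out (3, 8 and 197). For clustering, 2000 variable genes without the members and lists were picked with scanpy 1.11.5. Each gene was scaled separately within each library before 30 components were taken. That scaling removes mean differences between libraries, and so between ages, from the clustering. A shared-neighbour graph (15 neighbours, scikit-learn 1.9.0) was clustered by Leiden at resolution 0.5 (python-igraph 0.11.9). A cluster was named when at least 2 fixed markers were among its top 10 genes, and stayed unnamed otherwise, so names are rebuilt and not the authors'. Shares have exact 95% intervals, and a count of 0 has the limit that 3 counts give. Sums of classes with at least 20 cells per library were tested with edgeR 4.0.16 (TMM, low-count filter, adjusted p under 0.05) and, as an alternative, DESeq2 1.42.0; the fits were checked on simulated data. In the class fits by age the spread was shared wholly across genes. Other genes are named by fixed lists, where they passed an age test, or as the 5 most alike to a member; those named otherwise are marked. Members and lists were chosen with earlier results of these data known. Alternatives were another normalization, no low-count filter, thinned sums, stricter cell filters, resolution 1.0, doublets kept in, and leaving out each replicate; added after seeing the data were a single cluster per class and all cells without muscle and cycling clusters. No promoter or protein sequence is shown. Some results for listed or similar genes are not reported here.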

Additional observations from a re-analysis of the deposited data

Results flagged for a closer look

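For 4 listed genes that are not members, the age difference itself differed between classes by edgeR's quasi-likelihood interaction test, all named after their values were seen. Nrp1, a co-receptor, changed more with age in mural-like than in progenitor-like cells (2.95 on the log2 scale, adjusted p = 8.93e-05) and than in tenocyte-like cells (2.73, adjusted p = 0.00102), with 95.7 and 538 CPM (UMIs per 1000000 UMIs) in mural-like cells at 20 weeks, the first from 9 UMIs, against 33.8 at 2 weeks. Tuba1c differed by -3.80 for mural-like minus tenocyte-like cells (adjusted p = 2.23e-06). Plat differed by -2.43 for progenitor-like minus tenocyte-like cells (adjusted p = 0.00132). Stmn1 differed by -2.82 for the same pair (adjusted p = 0.00417), with 5.47 and 41.4 CPM in tenocyte-like cells at 20 weeks against 12.95 at 2 weeks. All 5 were lost by DESeq2, with adjusted p between 0.110 and 1.00. All but that of Tuba1c were also lost within 1 cluster per class, and those of Nrp1 against tenocyte-like cells, Plat and Stmn1 also at clustering resolution 1.0.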

How the results depend on the processing

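No pairing of libraries between ages was possible because the 2-week group is a single library, whose label gives no replicate number. Class contrasts, and their differences by age, had library as a block. All called class contrasts of the 4 genes stayed called in each of the 7 alternatives. The cause of the changes below was not tested. Without a low-count filter, Pdgfrl in all cells (-1.88) and Tppp3 in progenitor-like over tenocyte-like cells (1.34) passed. In tenocyte-like cells the calls were lost at resolution 1.0 (Tppp3 2.31, Pdgfrl -1.93), with doublets kept (2.13, -1.91) and within 1 cluster (0.44, -0.82), and Pdgfrl in progenitor-like cells by DESeq2 (-2.29) and with thinned sums (-2.45). Directions that were not calls turned as follows. Pdgfrl in mural-like over progenitor-like cells became 0.087 (DESeq2) and 0.53 (1 cluster), and Tppp3 in mural-like over tenocyte-like cells -0.036 (1 cluster). Within 1 cluster per class, age differences turned for Pdgfrb to -0.77 (mural-like minus progenitor-like), -1.76 (mural-like minus tenocyte-like) and -0.99 (progenitor-like minus tenocyte-like). For Pdgfrl they turned to -1.10 (mural-like minus tenocyte-like) and -1.36 (progenitor-like minus tenocyte-like, -0.38 at resolution 1.0). Tenocyte-like cluster 6 had only 3 Pdgfrb UMIs at 2 weeks. Pdgfrl had 3 and 0 UMIs at 20 weeks in mural-like cluster 9, and 2 in progenitor-like cluster 1 of replicate 1. Turned values that use these sums rest on few UMIs.

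Leaving out each 20-week replicate gave -3.10 to -1.84 for Pdgfrl in progenitor-like cells. For age differences it gave -2.53 to -1.55 (Pdgfra, mural-like minus progenitor-like), -3.26 to -2.69 (Pdgfra, mural-like minus tenocyte-like), -2.96 to 3.79 and -2.91 to 3.72 (Pdgfrl, the same pairs), -0.28 to 0.87 and -0.17 to 1.27 (Pdgfrb, the same pairs) and -0.067 to 0.051 (Pdgfrl, progenitor-like minus tenocyte-like). The Pdgfra values rest on 0 and 0 mural-like UMIs at 20 weeks against 7 at 2 weeks. They depend on a count of 2 added before taking logs and are not usable. The Pdgfrl values with mural-like cells rest on 4 and 0 mural-like UMIs at 20 weeks. Tppp3 in progenitor-like cells ran between -0.41 and 0.62. The age difference of Stmn1 for progenitor-like minus tenocyte-like cells ran between -4.37 and 0.30, turning without replicate 2.

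Genes called by age numbered 25 in all cells, and 666 without the filter, 193 by DESeq2, 59 with stricter cell filters and 516 without muscle fibre-like, myogenic-like and cycling clusters. They numbered 720 in tenocyte-like cells, and 312 (DESeq2), 306 (resolution 1.0), 295 (doublets kept) and 246 (1 cluster). They numbered 315 in progenitor-like cells, and 91 (DESeq2) and 122 (thinned sums), and 4 in mural-like cells, and 0 (thinned sums) and 2 (1 cluster). Without the filter, class contrasts called 2510 (mural-like over progenitor-like), 2469 (mural-like over tenocyte-like) and 1979 genes (progenitor-like over tenocyte-like), in place of 1457, 1336 and 985. Age differences called 99 genes for mural-like minus progenitor-like cells, and 4 (DESeq2) and 53 (resolution 1.0). They called 217 for mural-like minus tenocyte-like cells, and 143 (no filter), 32 (DESeq2), 57 (resolution 1.0) and 52 (1 cluster), and 173 for progenitor-like minus tenocyte-like cells, and 22, 37 and 45 (DESeq2, resolution 1.0, 1 cluster).

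Shares of Tppp3+ Pdgfra+ cells moved in each library. In 20-week replicates 1 and 2 and the 2-week library they were 4.62%, 24.4% and 13.01% at 2 or more UMIs of each, 14.7%, 22.2% and 9.45% at 2000 UMIs per cell, 5.78%, 9.24% and 3.55% at 1000 UMIs, and 27.5%, 45.8% and 28.7% with stricter filters. The observed over product ratio was 1.45 in replicate 2 and 1.41 at 2 weeks with 2 or more UMIs, 1.29 at 2 weeks at 1000 UMIs, where replicate 2 gave 1.20 with an interval of 0.978 to 1.46 that no longer left out 1, 1.13 in replicate 2 within depth quintiles, and 1.008 and 1.014 in replicate 2 and at 2 weeks within cluster and depth. Replicate 1 gave 0.993 with 2 or more UMIs and 0.987 at 1000 UMIs. Under stricter filters, and with doublets kept for progenitor-like cells, classes with under 20 cells in a 20-week library gave no value. Progenitor-like cells at 20 weeks numbered 16 and 13 under stricter filters and 9 and 9 with doublets kept, in place of 121 and 211. Counts of calls by age without a 20-week replicate gave no value either, as they leave no residual spread.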
